A study of Mus musculus with 14 samples.

Results

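The genes described here belong to the antioxidant program of NRF2, the transcription factor encoded by Nfe2l2. The group has 10 members, Nfe2l2, Gclm, Gclc, Srxn1, Nqo1, Hmox1, Txnrd1, Gsr, Prdx1 and Sqstm1. They were chosen by name, with earlier results of these data known. Every probeset whose symbol on the array platform is a member was taken, whatever its values. A probeset is a set of short probes designed against the RNA of a gene. Of 22626 probesets tested, 16 carry the symbol of a single member and cover 9 genes. A further 5 probesets carry both Prdx1 and Gm21399, so that RNA of these genes cannot be told apart, and they are described separately.

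The RNA came from B16-F10 cells, a melanoma line from C57BL/6J mice, and was hybridized to 14 Affymetrix arrays labelled as biological replicates. Control cells (5 arrays) were untreated and grown at 37°C. Lipofectamine-treated cells (3 arrays) received the cationic liposome reagent, with no plasmid, for 3 h in Opti-MEM at 37°C and then recovered for 30 min in RPMI with serum. Heat-shocked cells (3 arrays) were held at 42.5°C for 1 h and recovered for 30 min at 37°C. Cells treated with benzyl alcohol, which makes membranes more fluid (3 arrays), received 40 mM for 1 h at 37°C. Their recovery in fresh medium is given as 3 h in the protocol and as 30 min in the text of the series. All groups are 1 cell line and share its genotype. As control cells stayed in their own medium, the liposomes and the change to Opti-MEM cannot be told apart. Markers of melanocytes were checked. Of 10 listed 8 were measured, and all 8 lay above the array median in each group, with mean log2 signals from 9.30 to 13.21. In any group at most 2 of 7 markers of epithelial cells and 1 of 6 of fibroblasts lay above the array median. For macrophages it was at most 3 of 6, with heat shock and with benzyl alcohol, and for endothelial cells 1 of 4. In such bulk RNA a smaller share of cells and less RNA per cell cannot be told apart.

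NRF2 is made and degraded all the time in unstressed cells, because KEAP1 presents it to the CUL3 ubiquitin ligase. Oxidants and electrophiles modify cysteines of KEAP1, NRF2 then accumulates, pairs with a small MAF protein and binds antioxidant response elements in its target genes, while BACH1 competes for the same elements. The targets build glutathione (Gclm and Gclc encode the subunits of the enzyme that starts its synthesis, Gsr reduces its oxidized form). They also repair protein thiols (Srxn1, Txnrd1), remove peroxide (Prdx1), reduce quinones (Nqo1), break down haem (Hmox1) and bind KEAP1 for autophagy (Sqstm1, or p62). Pigment cells make quinones and peroxide while they make melanin, and this program is one of their known defences.

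The core of the antioxidant response element, TGACNNNGC, was looked for on both strands (GCNNNGTCA on the other) in promoters of RefSeq on GRCm38.p6, from 250 bases before to 50 after the start. The letters overlap with those of AP-1 sites. Of 10 members, 7 had entries, 9 promoters in all, while Gclc, Hmox1 and Gsr had none. A match was found in 5 of these 9, once each for Nfe2l2, Gclm, Prdx1, Srxn1 and Txnrd1, and in 12.4% of all 32851 promoters of the table. The sequences below are those of the matches that lie before the start, with the matching letters in capitals, each written along the strand of its gene. The Gclm promoter is given whole before its start (chr3:122245307-122245556, plus strand), since Gclm had the widest range over the arrays of the genes with a match there. The window of Nfe2l2 is chr2:75704885-75704913 (minus strand), that of Prdx1 chr4:116685456-116685484 (plus strand) and that of Txnrd1 chr10:82859104-82859132 (plus strand), in 1 of its 3 promoters.
Gclm: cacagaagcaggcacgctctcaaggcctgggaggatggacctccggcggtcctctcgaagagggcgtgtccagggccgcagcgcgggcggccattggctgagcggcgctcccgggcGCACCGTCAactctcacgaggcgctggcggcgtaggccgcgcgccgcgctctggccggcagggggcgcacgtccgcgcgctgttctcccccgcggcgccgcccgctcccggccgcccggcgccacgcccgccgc
Nfe2l2: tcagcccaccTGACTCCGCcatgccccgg
Prdx1: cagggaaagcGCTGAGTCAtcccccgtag
Txnrd1: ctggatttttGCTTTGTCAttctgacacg
The Gclm match begins 134 bases before the start, that of Prdx1 133, that of Txnrd1 92 and that of Nfe2l2 240. The Srxn1 match lies after the start, from base 29 to 37. No match says only that the letters are not in this window, as for Nqo1 and Sqstm1.

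Every value below is a log2 signal after RMA, so that a difference of 1 is a 2-fold change. Arrays were compared with limma, and the words rise and fall are kept for a p under 0.05 after Benjamini-Hochberg adjustment across the 22626 probesets. Errors of differences are standard errors (SE), and means are given with the SD.

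The 5 control arrays did not form a single level for these genes. Control arrays 1 and 3 were higher than control arrays 2, 4 and 5 at all 16 member probesets, and at 14 of 16 the lowest of the former lay above the highest of the latter, against 17.7% of all probesets tested. The median difference was 0.62 over the 16 probesets and −0.04 over all probesets. These arrays had been set apart in view of their values, so the difference between them is a description and was not tested. Hmox1, which opens the haem ring and frees iron, differed most, and only 0.035% of all probesets had a larger difference of either sign. The gene lies at chr8:75093618-75100593 of GRCm38.p6. Its signals were 12.29 and 12.39 in control arrays 1 and 3, against 8.40, 8.78 and 8.53 in the others. Srxn1, which reduces overoxidized peroxiredoxins, read 11.43 and 11.62 against 8.53, 8.55 and 8.82 at its brightest probeset. Gclm, the regulatory subunit of glutamate-cysteine ligase, read 11.09 and 11.10 against 8.81, 9.05 and 9.23. The differences were 3.77, 2.90 and 2.07. The Srxn1 probesets were not alike, with differences of 2.90, 2.56 and 2.41 at 3 of them and of 0.34 at 1419942_at. Nqo1, a quinone reductase, differed by 1.39 and Sqstm1 by 1.26. Smaller differences were found for Gsr (0.64 and 0.58), Gclc (0.60 and 0.58) and Nfe2l2 itself (0.49). Txnrd1, the reductase of cytosolic thioredoxin, differed by 0.48 at its brightest probeset, while at 1424486_a_at (0.15) and 1424487_x_at (0.18) the control arrays overlapped. The probesets of Prdx1 and Gm21399 differed by 0.19 to 0.50. The spread among controls was therefore part of each comparison with them, and each is given against either set of control arrays as well. Because the sets were chosen from values, every call and adjusted p against 1 set alone is a description and not an independent test. The spread within a set is also smaller. For Gclm with Lipofectamine the SE was 0.461 over all 5 control arrays and 0.116 with control arrays 2, 4 and 5.

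**Figure D1:**
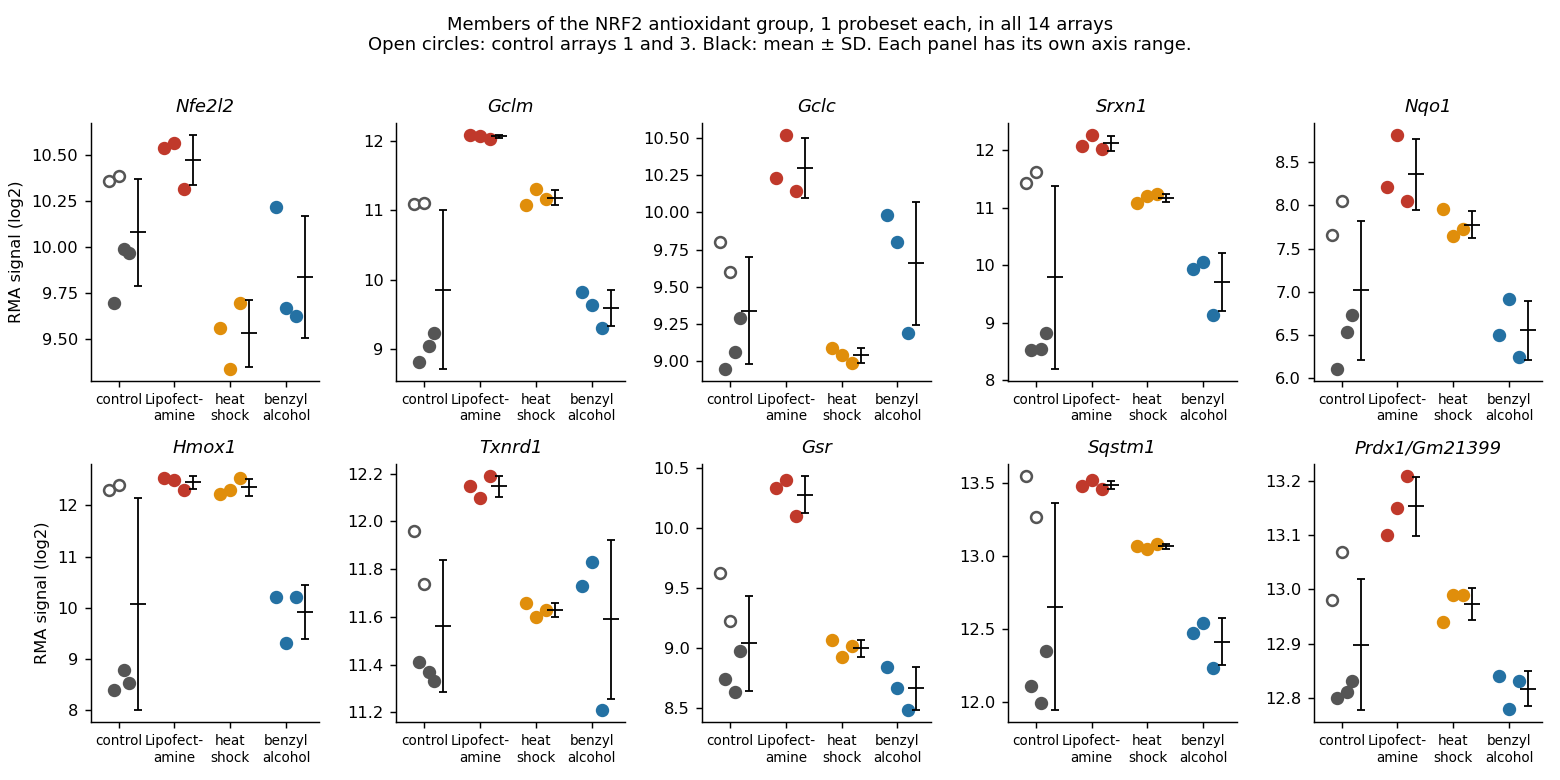
Log2 RMA signal (vertical axes, each with its own range) of 1 probeset per gene in every array of the 4 groups, with control arrays 1 and 3 drawn as open circles and mean ± SD in black. The open circles lie above the other control arrays in every panel, and the Lipofectamine arrays lie above all control arrays in 7 of 10 panels, not for Nfe2l2, Hmox1 and Sqstm1.

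With Lipofectamine, 10 of 16 member probesets rose and none fell, in 6 of 9 genes: Gclm, Gclc, Gsr, Srxn1, Txnrd1 and Nqo1. Of all probesets 1.78% rose and 3.1% fell. The median difference of the members was 1.12, against −0.02 over all probesets. At 12 of 16 every Lipofectamine array lay above every control array, which was so at 3.69% of all probesets. Nfe2l2, Hmox1 and Sqstm1 were the genes with no probeset that passed. The count of 10 fell to 6 without control array 2, to 5 without control array 4 and to 4 without any 1 of the 3 Lipofectamine arrays. With the replicate number of the arrays as a block, an alternative described below, it was 2.

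Gsr, which returns oxidized glutathione to its reduced form at the cost of NADPH, gave the lowest adjusted p of the members and lies at chr8:33653238-33698162. Its control signals were 9.62, 8.74, 9.22, 8.63 and 8.97, and its Lipofectamine signals 10.33, 10.40 and 10.10. All treated arrays lay above all control arrays, also above control arrays 1 and 3. The rise was 1.24 (SE 0.181, adjusted p = 0.00244 by limma), and 1.19 at its other probeset (adjusted p = 0.00254). Both calls held under each of 20 alternative settings, with differences of no less than 0.86 and 0.84.

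Gclm rose from 9.85 ± 1.14 (SD, n = 5) to 12.06 ± 0.03 (n = 3), with signals of 12.08, 12.07 and 12.03 after Lipofectamine. The rise was 2.21 (SE 0.461, adjusted p = 0.0166 by limma), or 4.62-fold. It was 0.97 against control arrays 1 and 3 and 3.04 against the others, and the call was lost without any 1 of the 3 Lipofectamine arrays (adjusted p up to 0.0809). Gclc, the catalytic subunit of the same ligase, had control signals of 9.80, 8.95, 9.60, 9.06 and 9.29 and Lipofectamine signals of 10.23, 10.52 and 10.14. No treated array overlapped the control arrays. Its rise was 0.96 at this probeset (SE 0.171, adjusted p = 0.00781) and 0.97 at the other (adjusted p = 0.00691), and both calls held in 19 of 20 alternative settings, those with each array left out among them.

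Among the genes of thiol repair, Txnrd1 rose at all 3 of its probesets. At the brightest, control signals of 11.96, 11.41, 11.74, 11.37 and 11.33 stood against 12.15, 12.10 and 12.19 with Lipofectamine. The treated arrays were higher than every control array, by a narrow margin over control array 1. The rise there was 0.59 (SE 0.134, adjusted p = 0.0254 by limma), and it was 1.04 at 1424486_a_at and 0.86 at 1424487_x_at (adjusted p = 0.0254 and 0.0203). The call at the brightest probeset was lost without any 1 of control arrays 2, 4 and 5 or Lipofectamine arrays 1, 2 and 3 (adjusted p up to 0.112). At 1424486_a_at it was lost without control array 2 or 4 or any Lipofectamine array (up to 0.119), and at 1424487_x_at without control array 4 or any Lipofectamine array (up to 0.107). Against control arrays 1 and 3 the differences in this order were 0.30, 0.95 and 0.75. None of them passed there (adjusted p = 0.217, 0.0596 and 0.0544 by limma). Against the other control arrays they were 0.78, 1.10 and 0.93. All 3 calls were also lost with the replicate number as a block.

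Srxn1 passed at 1 of 4 probesets, 1425351_at. Control signals there were 10.25, 7.54, 9.77, 7.60 and 7.64, and Lipofectamine signals 10.66, 10.82 and 10.56. All 3 treated arrays were above control arrays 1 and 3, and far above the others. The rise was 2.12 (SE 0.538, adjusted p = 0.0396 by limma). The brightest probeset gave 2.34 (adjusted p = 0.0532), 1451680_at gave 2.12 (adjusted p = 0.0514) and 1419942_at gave 0.40 (adjusted p = 0.0852), and none of these passed. Against control arrays 1 and 3 the differences at the first 3 of these 4 probesets were 0.67, 0.60 and 0.58, and against the others 3.08, 3.49 and 3.14. The call at 1425351_at was lost without any single treated array, heat shock included, or any of control arrays 2, 4 and 5 (adjusted p up to 0.142).

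Nqo1 had control signals of 7.66, 6.11, 8.05, 6.54 and 6.73 and Lipofectamine signals of 8.21, 8.82 and 8.05. The lowest treated array and control array 3 lay close together. Its rise was 1.34 (SE 0.351, adjusted p = 0.0447 by limma). It was 0.51 against control arrays 1 and 3 and 1.90 against the others, and the call was lost without the same 9 arrays as that of Srxn1 (adjusted p up to 0.152).

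Hmox1 did not pass, although its mean differed by more than that of any other member. Its Lipofectamine signals were 12.54, 12.50 and 12.30. They overlapped control arrays 1 and 3 and were far above control arrays 2, 4 and 5. The difference was 2.37 (SE 0.828, adjusted p = 0.126 by limma), made up of 0.10 against the former and 3.87 against the latter. Sqstm1, with signals of 13.48, 13.52 and 13.46 against control signals of 13.55, 12.11, 13.27, 11.99 and 12.35, behaved alike, with a difference of 0.83 (adjusted p = 0.126). Nfe2l2 differed by 0.40 (adjusted p = 0.163). Its Lipofectamine signals of 10.54, 10.57 and 10.32 overlapped control signals of 10.36, 9.70, 10.39, 9.99 and 9.97.

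Prdx1 removes peroxide with electrons from thioredoxin and is overoxidized in doing so. Over all control arrays, none of the 5 probesets that it shares with Gm21399 passed with Lipofectamine. Of these, 4 of 5 had an unadjusted p under 0.05, beside 4248 of all 22626 probesets. At 1416000_a_at control signals of 12.98, 12.80, 13.07, 12.81 and 12.83 stood against 13.10, 13.15 and 13.21 with Lipofectamine. The difference of 0.26 (adjusted p = 0.128 by limma) was small beside those of the other genes, and the other 4 shared probesets gave 0.06 to 0.34. This outcome too depended on the control arrays taken. Against control arrays 2, 4 and 5 all but 1437014_x_at passed, by 0.34 to 0.44, where 8.1% of all probesets rose. Against control arrays 1 and 3 none passed (−0.23 to 0.19). None of the 5 passed with heat shock (0.04 to 0.16) or with benzyl alcohol (−0.10 to −0.04), and 0 had an unadjusted p under 0.05 there.

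With control arrays 1 and 3 as the controls, 8 of 16 member probesets rose with Lipofectamine and none fell, those of Gclm, Gclc and Gsr and 3 of 4 of Srxn1. Of all probesets 1.55% rose and 3.07% fell in that fit. With control arrays 2, 4 and 5 as the controls, all 16 rose, where 8.1% of all probesets rose and 10.7% fell. The median difference of the members was 0.60 in the former fit and 1.38 in the latter. Both sets of control arrays were chosen from their values, so these counts are descriptions.

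**Figure D2:**
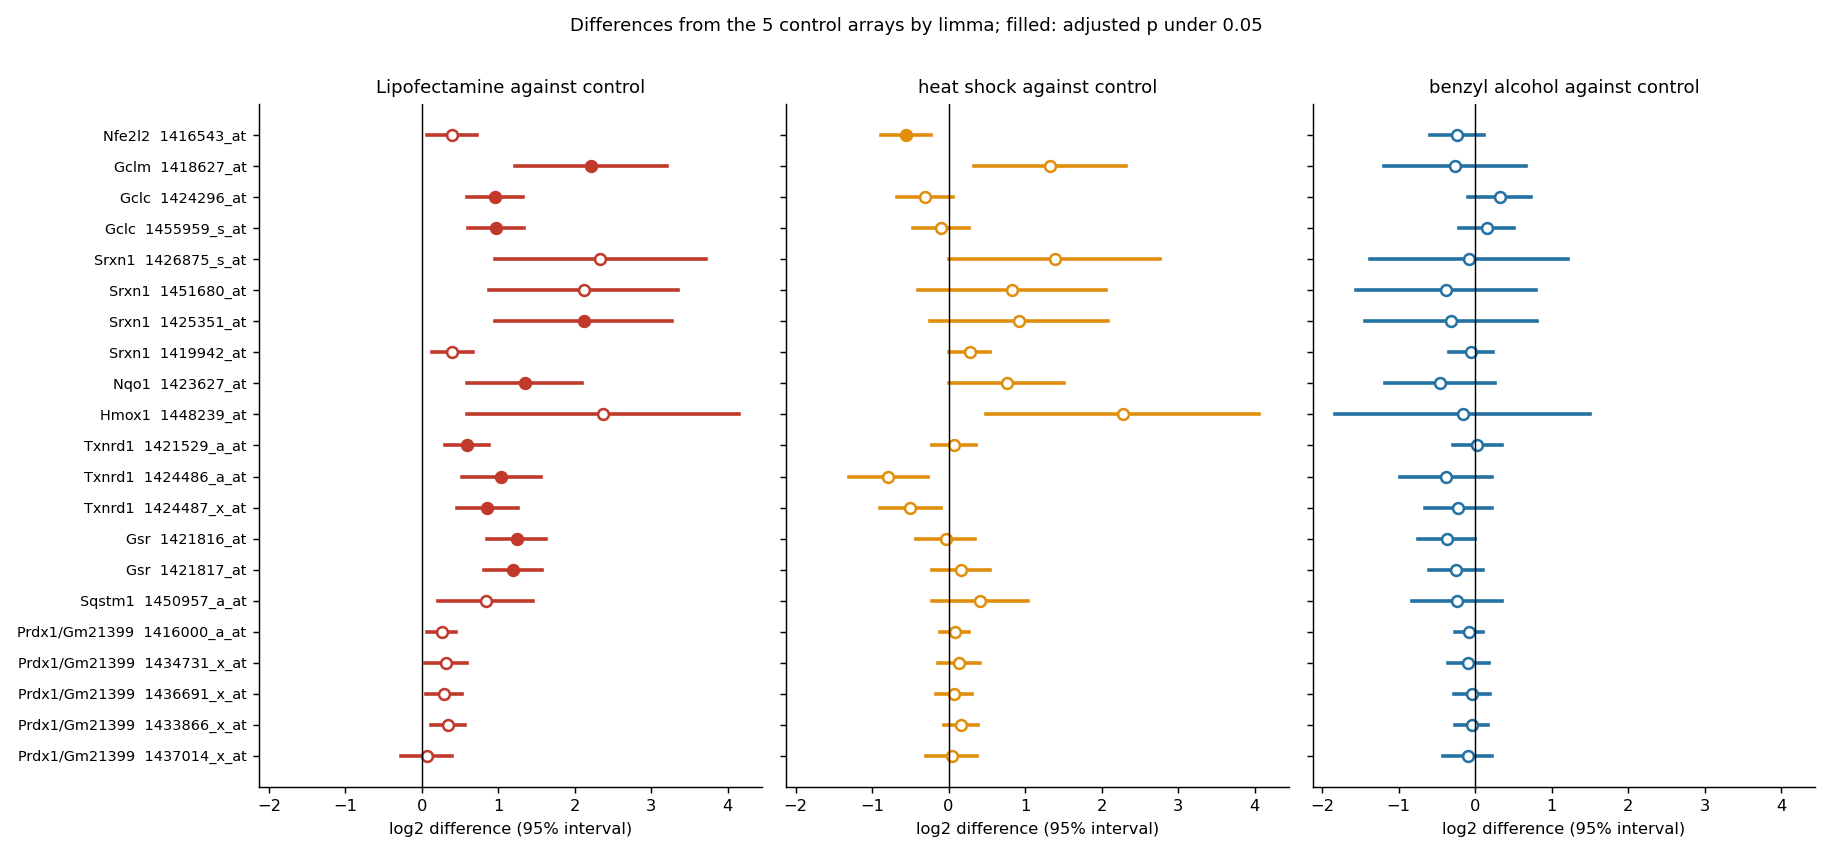
Difference in log2 signal from the 5 control arrays (horizontal axis) with its 95% interval by limma, for the 16 member probesets and the 5 shared by Prdx1 and Gm21399, with filled points where the adjusted p was under 0.05. With Lipofectamine 10 points are filled, with heat shock only that of Nfe2l2, which is lower (−0.55), and with benzyl alcohol none.

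Heat shock raised none of the 16 member probesets at this threshold and lowered 1, that of Nfe2l2. Of all probesets 1.05% rose and 4.91% fell. An unadjusted p under 0.05 was found at 8 member probesets, 5 of them higher and 3 lower. It was found at 5158 of all 22626 probesets, 1775 of them higher and 3383 lower. The median difference was 0.22, against 0.03 over all probesets. The heat-shocked cells had high signals of Hmox1 and Gclm and low signals of Nfe2l2, beside control arrays that spanned a wide range.

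Nfe2l2 read 9.56, 9.34 and 9.70 after heat shock, and no heat shock array lay above the lowest control array. It fell by 0.55 (SE 0.152, adjusted p = 0.0486 by limma). The difference was −0.85 against control arrays 1 and 3 and −0.36 against the others, and the call was kept in 7 of 20 alternative settings. It was lost without any single array other than control arrays 2 and 3 (adjusted p up to 0.229).

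Hmox1 read 12.22, 12.30 and 12.54 after heat shock, level with control arrays 1 and 3 and above the other control arrays. The difference was 2.28 (SE 0.828, adjusted p = 0.12 by limma). Gclm read 11.08, 11.30 and 11.16, again level with control arrays 1 and 3, and differed by 1.33 (SE 0.461, adjusted p = 0.105). Srxn1 had 11.09, 11.20 and 11.23 at its brightest probeset, slightly under control arrays 1 and 3 (difference 1.39, adjusted p = 0.216). Nqo1 gave 7.96, 7.65 and 7.73 (difference 0.76, adjusted p = 0.217) and Sqstm1 13.07, 13.05 and 13.08 (difference 0.41, adjusted p = 0.412). From the mean of control arrays 1 and 3 these 5 genes differed by −0.35 (Srxn1) to 0.09 (Gclm).

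For Gclc, Gsr and Txnrd1 the differences were near 0 or negative. Gclc read 9.09, 9.04 and 8.99 after heat shock (difference −0.30, adjusted p = 0.307 by limma) and Gsr 9.06, 8.92 and 9.01 (difference −0.04, adjusted p = 0.919). The probesets of Txnrd1 gave unlike values. The brightest read 11.66, 11.60 and 11.63 (difference 0.07, adjusted p = 0.79), while 1424486_a_at read 8.18, 8.57 and 8.80 against control signals of 10.08, 9.02, 8.71, 9.18 and 9.53 (difference −0.79, adjusted p = 0.0693). The 1424487_x_at probeset gave −0.50 (adjusted p = 0.13).

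The outcome for heat shock depended on which control arrays were taken. With control arrays 1 and 3 as the controls, 3 member probesets fell with heat shock and none rose, those of Nfe2l2, Gclc (1424296_at, −0.66) and Srxn1 (1451680_at, −0.71), where 0.689% of all probesets rose and 3.03% fell. With control arrays 2, 4 and 5, 9 rose and 3 fell, where 7.31% of all probesets rose and 14.5% fell. The 9 were those of Gclm (2.15), Hmox1 (3.78), Nqo1 (1.32) and Sqstm1 (0.92), all 4 of Srxn1 (0.41 to 2.54) and 1 of Gsr (0.40). The 3 were that of Nfe2l2 and those of Txnrd1 at 1424486_a_at (−0.73) and 1424487_x_at (−0.43). Nfe2l2 was thus lower in either case. Without control array 3 alone 7 member probesets passed, 4 higher and 3 lower, and without control array 1 alone 2 passed, both higher. Shares of all probesets are not given for fits with 1 array left out. No member passed without any single one of control arrays 4 and 5, the heat shock arrays or the Lipofectamine arrays.

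Benzyl alcohol changed none of the 16 member probesets by limma, and 1 had an unadjusted p under 0.05, beside 3024 of all 22626 probesets. Of all probesets 0.689% rose and 0.698% fell. The median difference of the members was −0.24, against 0.02 over all probesets. Every member overlapped the range of the control arrays. Hmox1 read 10.22, 9.31 and 10.21, above control arrays 2, 4 and 5 and below 1 and 3 (difference −0.17, 95% interval −1.83 to 1.50, adjusted p = 0.961). Gclm read 9.82, 9.64 and 9.31 and was placed likewise (difference −0.26, 95% interval −1.19 to 0.66, adjusted p = 0.87). At the brightest probeset of Srxn1 the signals of 9.94, 10.06 and 9.13 also fell between them (difference −0.08, 95% interval −1.37 to 1.22, adjusted p = 0.974). These intervals are wide, and changes of 2-fold in either direction lie inside those of Hmox1 and Srxn1.

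Gsr had the lowest unadjusted p of the members with benzyl alcohol, with 8.84, 8.66 and 8.48 (difference −0.37, adjusted p = 0.372 by limma). Gclc read 9.98, 9.80 and 9.19 (difference 0.32, adjusted p = 0.528), Nqo1 6.50, 6.92 and 6.25 (difference −0.46, adjusted p = 0.631), and Nfe2l2 10.22, 9.67 and 9.63 (difference −0.24, adjusted p = 0.605). Sqstm1 read 12.47, 12.54 and 12.23 and Txnrd1, at its brightest probeset, 11.73, 11.83 and 11.21. The third benzyl alcohol array was the lowest of the 3 for each of these 6 genes.

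With control arrays 1 and 3 as the controls, 9 member probesets fell with benzyl alcohol and none rose, where 5.17% of all probesets rose and 7.32% fell. These were Hmox1 (−2.43), 3 of 4 of Srxn1 (−1.77 to −1.92), Gclm (−1.51), Nqo1 (−1.30), Sqstm1 (−0.99) and both of Gsr (−0.76 and −0.61). With control arrays 2, 4 and 5 as the controls, 3 rose and none fell, where 1.22% of all probesets rose and 1.81% fell. These were Hmox1 (1.34), Srxn1 at its brightest probeset (1.08) and Gclm (0.56), so that the direction turned with the control arrays taken.

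**Figure D3:**
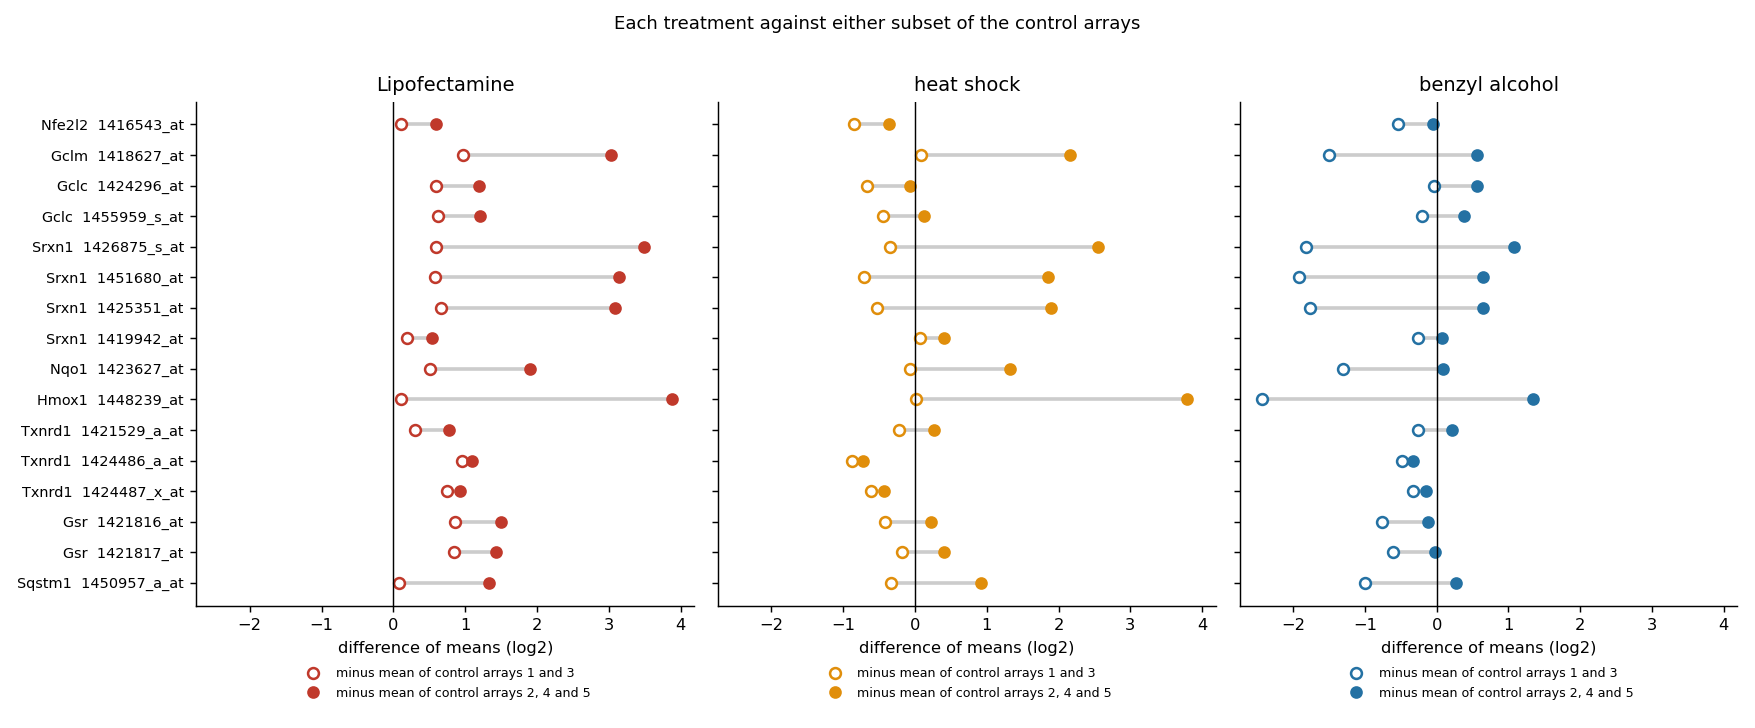
Difference between the mean log2 signal of each treatment and the mean of control arrays 1 and 3 (open) or of control arrays 2, 4 and 5 (filled), for the 16 member probesets. With Lipofectamine all points lie right of 0, while with heat shock and benzyl alcohol several genes cross 0, Hmox1 by −2.43 and 1.34 with benzyl alcohol.

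The direct comparisons do not draw their difference from the control arrays, though these enter the shared estimate of the spread. Lipofectamine stood above heat shock at 7 of 16 member probesets and below it at none, in 4 genes, where 4.42% of all probesets were higher and 1.3% lower. The median difference was 0.99, against −0.05 over all probesets. At 14 of 16 every Lipofectamine array lay above every heat shock array, which was so at 15% of all probesets.

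The 4 genes were Txnrd1, Gsr, Gclc and Nfe2l2. Txnrd1 at 1424486_a_at read 10.42, 10.33 and 10.29 with Lipofectamine against 8.18, 8.57 and 8.80 with heat shock, a difference of 1.83 (SE 0.267, adjusted p = 0.00226 by limma). It was 1.35 at 1424487_x_at (adjusted p = 0.00282) and 0.52 at the brightest probeset (adjusted p = 0.0604), which did not pass. Gsr differed by 1.28 (SE 0.202, adjusted p = 0.0034) and 1.03 (adjusted p = 0.00896), and Gclc by 1.26 (SE 0.191, adjusted p = 0.00271) and 1.07 (adjusted p = 0.00581). Nfe2l2 differed by 0.95 (SE 0.169, adjusted p = 0.00594). Under 18 alternative settings 6 of these 7 calls held, and that of 1421817_at of Gsr was lost without heat shock array 2 or Lipofectamine array 2 (adjusted p up to 0.0536).

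Hmox1 had nearly the same mean after Lipofectamine and heat shock, 12.44 ± 0.13 and 12.35 ± 0.17 (SD, n = 3 each), a difference of 0.09 (95% interval −1.90 to 2.08, adjusted p = 0.968 by limma). The control arrays, whose SD was 2.07 at this gene, enter that interval. Gclm differed by 0.88 (adjusted p = 0.362), with no overlap of the arrays. Srxn1 at its brightest probeset differed by 0.95 (adjusted p = 0.487), Nqo1 by 0.58 (adjusted p = 0.432) and Sqstm1 by 0.42 (adjusted p = 0.503), likewise without overlap.

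Benzyl alcohol stood below Lipofectamine at 13 of 16 member probesets and above it at none, in 8 of 9 genes, where 6.71% of all probesets were higher and 5.22% lower. The median difference was −1.44, against 0.04 over all probesets, and at 15 of 16 every benzyl alcohol array lay below every Lipofectamine array, against 12.9% of all probesets. Gsr gave the lowest adjusted p, with differences of −1.61 (SE 0.196, adjusted p = 2.8e-04 by limma) and −1.45 (adjusted p = 4.2e-04). Gclm differed by −2.47 (SE 0.486, adjusted p = 0.00496) and Nqo1 by −1.81 (SE 0.379, adjusted p = 0.00693). Srxn1 passed at 3 of 4 probesets, by −2.41 to −2.50. Txnrd1 passed at all 3, with −0.56, −1.43 and −1.08. Sqstm1 (−1.07, adjusted p = 0.0331), Gclc at 1455959_s_at (−0.82, adjusted p = 0.0119) and Nfe2l2 (−0.64, adjusted p = 0.0356) completed the list. Hmox1 had a larger difference, −2.53, and did not pass (adjusted p = 0.0734). Without Lipofectamine array 1 the count was 7 and without benzyl alcohol array 3 it was 6. The calls of Gsr, Gclm and Nqo1 and those of Txnrd1 at 1424486_a_at and 1424487_x_at held under all 21 alternatives. At the shared probesets of Prdx1 and Gm21399, 2 of 5 were lower with benzyl alcohol (−0.34 and −0.38), and these calls held under 12 of 21.

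Between benzyl alcohol and heat shock no member probeset passed, where 5.44% of all probesets were higher and 1.78% lower. An unadjusted p under 0.05 was found at 8 of 16 (7 lower and 1 higher), beside 4893 of all 22626 probesets (1785 lower and 3108 higher). At 10 of 16 every benzyl alcohol array lay below every heat shock array, against 14.5% of all probesets. Hmox1 differed by −2.44 (adjusted p = 0.106 by limma), Gclm by −1.59 (adjusted p = 0.0599) and Nqo1 by −1.22 (adjusted p = 0.0634). Gclc at 1424296_at went the other way, with every benzyl alcohol array above every heat shock array (0.62, adjusted p = 0.094). When these groups were fitted without the other arrays, 9 member probesets passed, 8 lower and 1 higher. The share of all probesets that passed in that fit is not given, so this count cannot be set beside it.

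**Figure D4:**
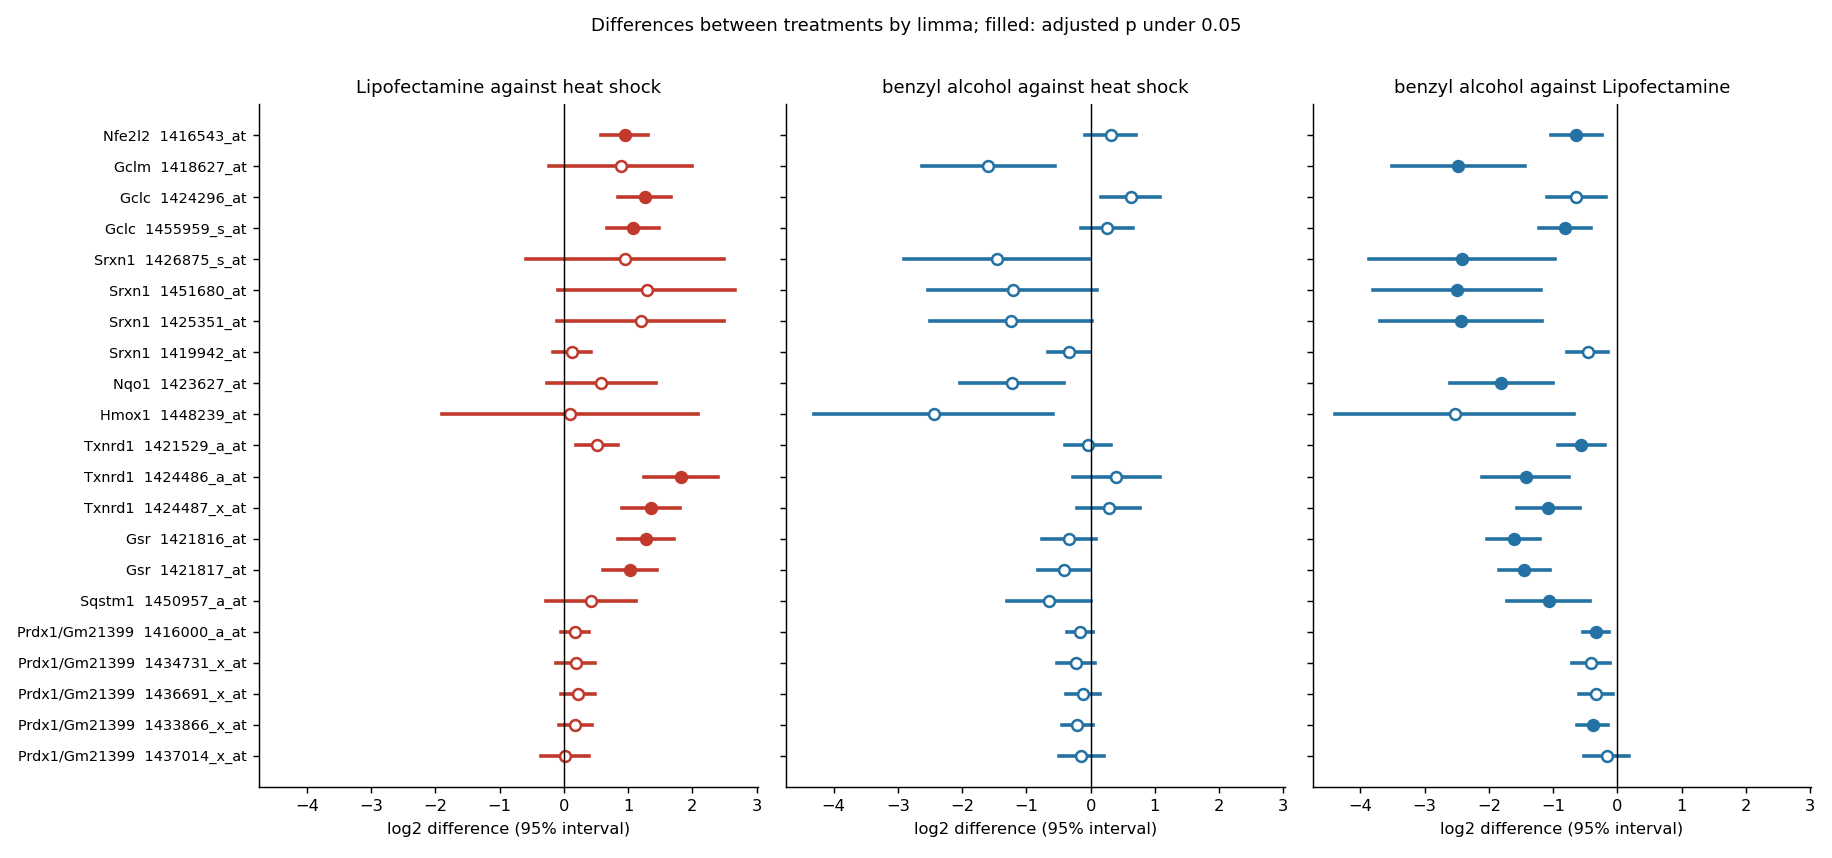
Difference in log2 signal between treatments (horizontal axis) with its 95% interval by limma, for the 16 member probesets and the 5 shared by Prdx1 and Gm21399, with filled points where the adjusted p was under 0.05. All 7 filled points of Lipofectamine against heat shock lie above 0 and all 15 of benzyl alcohol against Lipofectamine below it.

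Other genes of the pathway were taken from 8 lists, 140 genes of which 125 were measured, each read from its brightest probeset. With Lipofectamine 14 rose and 2 fell, with heat shock 1 fell and none rose, and with benzyl alcohol 2 rose and none fell. Of all probesets 1.78% rose and 3.1% fell with Lipofectamine, 1.05% and 4.91% with heat shock, and 0.689% and 0.698% with benzyl alcohol. Here and below these shares include dimmer probesets of the same genes, so they are not matched to a list of brightest probesets. At an unadjusted p under 0.05 there were 47, 34 and 19 of the 125 genes, beside 4248, 5158 and 3024 of all 22626 probesets. The medians over the 125 genes were 0.14, 0.12 and −0.06. In the direct comparisons 6 stood higher with Lipofectamine than with heat shock and none lower, beside 4.42% and 1.3% of all probesets. With benzyl alcohol 7 stood higher and 30 lower than with Lipofectamine (6.71% and 5.22% of all probesets), and 6 higher and 14 lower than with heat shock (5.44% and 1.78%). With control arrays 1 and 3 as the controls, the counts were 13 higher and 6 lower with Lipofectamine, 1 and 4 with heat shock, and 6 and 34 with benzyl alcohol. The shares of all probesets were 1.55% and 3.07%, 0.689% and 3.03%, and 5.17% and 7.32%. With control arrays 2, 4 and 5 they were 48 and 10, 45 and 9, and 6 and 0, beside 8.1% and 10.7%, 7.31% and 14.5%, and 1.22% and 1.81% of all probesets.

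Of 15 regulators of NRF2, 2 rose and 2 fell with Lipofectamine. Maff, a small MAF partner of NRF2, rose by 0.98 (SE 0.107, adjusted p = 4.5e-04 by limma), and Bach1, the repressor of the same elements, by 0.86 (adjusted p = 0.0166). For Bach1 the difference of control arrays 1 and 3 from the other control arrays was 0.57. The acetyltransferase Crebbp fell by 0.43 and the chromatin remodeller Chd6 by 0.48. Maff rose more with benzyl alcohol, by 1.62 (SE 0.147, adjusted p = 2.5e-05), and its control arrays 1 and 3 lay only 0.08 above the others. Bach2 rose by 0.71 with benzyl alcohol (adjusted p = 0.00827). Its signal was low, 5.25 in the controls and 5.95 with benzyl alcohol, below the median of every array (7.03 or more). None of the 15 regulators passed with heat shock, where 4 had an unadjusted p under 0.05, beside 5158 of all 22626 probesets. Of 34 genes of glutathione synthesis, use and export, 5 rose with Lipofectamine. These were glutaredoxin Glrx (0.85, adjusted p = 0.00241) and the glutathione transferases Gsta3 (1.13) and Gstm1 (1.12), with Mgst1 (1.29) and Gsta4 (0.82), which fall outside the rule for named genes and are added after their values were seen. Except for Glrx (0.13), these genes were also higher in control arrays 1 and 3, by 0.72 to 0.98. The signal of Gsta3 was low, 5.40 in the controls and 6.53 with Lipofectamine, below the median of every array (7.03 or more).

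Of 12 enzymes that make NADPH or feed its synthesis, Me1 (0.75, adjusted p = 0.0097 by limma) and Taldo1 (1.00, adjusted p = 0.0203) rose with Lipofectamine. Both were also higher in control arrays 1 and 3, by 0.49 and 0.86. Of 18 quinone, carbonyl and xenobiotic enzymes, the carbonyl reductase Cbr3 (0.79, adjusted p = 0.00284) and the dehydrogenase Adh7 (1.57, adjusted p = 0.0328) rose with Lipofectamine. The difference of control arrays 1 and 3 from the other control arrays was 1.68 for Adh7 and −0.08 for Cbr3. Ugdh fell with heat shock by 0.47 (adjusted p = 0.0437). Txnl1, a thioredoxin-like protein, was the only riser of 14 thioredoxins, peroxiredoxins and related proteins (0.48). The kinases Tbk1 (0.93) and Ulk1 (0.55) rose among 13 autophagy receptors and partners of p62, and were 0.58 and 0.13 higher in control arrays 1 and 3. For Txnl1 that difference was 0.22. None of 9 genes of haem breakdown and iron storage and none of 10 of superoxide and peroxide removal passed in any comparison with the controls by limma. At an unadjusted p under 0.05 there were 4, 2 and 1 of the former with Lipofectamine, heat shock and benzyl alcohol in turn. Of the latter there were 4, 4 and 2, and of all 22626 probesets 4248, 5158 and 3024.

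The profiles of the members with the largest SD over the 14 arrays were set against those of all probesets with 1 symbol that is not a member, by the root mean square of the difference between values centred on their own mean. Outside the group, the nearest to Hmox1 were both probesets of Trib3 (0.45 and 0.49 on the log2 scale) and Cxcl10 (0.53). For Srxn1 they were Atf5 (0.34), Ypel5 (0.36) and the cystine transporter Slc7a11 (0.44). For Gclm they were Atf5 (0.31), Ypel5 (0.32) and Uchl1 (0.33). They were chosen for likeness over these same 14 arrays, so the differences that follow are partly set by the choice. All of these had more signal in control arrays 1 and 3 than elsewhere among the controls, by 1.66 (Uchl1) to 4.59 (Trib3). Uchl1 was the only one of them to pass with Lipofectamine (1.51, adjusted p = 0.0382 by limma). All had higher means with heat shock than over all 5 control arrays, by 0.98 to 2.18. Differences from either set of control arrays alone are not given for them.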

How the data were processed

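RNA of B16-F10 cells was hybridized to mouse expression arrays by the authors, who read them with GCOS 1.2 and applied RMA. The deposited values are log2 signals, which RMA had corrected for background, normalized between arrays and summarized per probeset, so that fold changes are those of normalized signals and the precision depends on the number of arrays. The version of RMA is not given in the sources used here. Symbols came from the platform annotation (20380 of 22626 probesets with 1 symbol, 691 with several, 1555 with none), and 64 Affymetrix control probesets were left out. Differences were computed in R 4.3.3 with limma 3.58.1. Control, Lipofectamine and heat shock were fitted together over 11 arrays, and comparisons with benzyl alcohol over all 14, without a filter on signal. The code was tested on simulated data.

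Members, lists and the division of the control arrays were chosen with earlier results of these data known. Named genes are all members, in each list up to 3 genes per direction that passed by smallest p against the control, and the 3 nearest probesets to the 3 members with the largest SD. Alternatives were renewed quantile normalization, removal of the dimmest probesets, a variance trend, the replicate number as a block, array weights, the methods' p threshold of 0.001, other sets of arrays, either set of control arrays alone, and each array left out. Shares of all probesets are given for the main fits and for either set of control arrays alone, not for the other alternatives.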

Additional observations from a re-analysis of the deposited data

How the results depend on the processing

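Counts of member probesets called are out of 16, and those that moved by more than 1.5 times, or from or to 0, were as follows. With Lipofectamine against control the count of 10 went to 2 with the replicate number as a block, 16 with array weights and 16 with control arrays 2, 4 and 5 alone. The calls left with the block were those of Gsr, and those of Gclc were lost (adjusted p = 0.0760 and 0.0680 by limma). Within that margin the count was 12 without the dimmest probesets, with a variance trend and in the fit of all 14 arrays, 7 at the methods' threshold, 8 with control arrays 1 and 3 alone and 10 with renewed quantile normalization. With heat shock against control the count of 1 went to 0 with renewed quantile normalization, 0 with the block, 0 at the methods' threshold and 0 in the fit of all 14 arrays, and to 11 with array weights, 3 with control arrays 1 and 3 and 12 with control arrays 2, 4 and 5. Lipofectamine against heat shock went from 7 to 14 with array weights. Benzyl alcohol against control went from 0 to 9 with control arrays 1 and 3 and to 3 with the others. Benzyl alcohol against heat shock went from 0 to 1 without the dimmest probesets, 2 with the block, 9 with array weights and 9 in a fit of only these groups. Benzyl alcohol against Lipofectamine went from 13 to 7 at the methods' threshold. The cause was not tested, and the estimation of array weights stopped before its tolerance was met.

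With each array left out in turn the counts were 4 to 15 (Lipofectamine against control), 0 to 7 (heat shock against control), 0 to 3 (benzyl alcohol against heat shock) and 6 to 15 (benzyl alcohol against Lipofectamine). The first was 6 and 5 without control arrays 2 and 4, and 4 without any 1 of the Lipofectamine arrays. 4 values that had not passed took the opposite sign and passed in 1 alternative each, Srxn1 at 1451680_at with heat shock against control arrays 1 and 3 (−0.71), and Gclm (0.56), Srxn1 at 1426875_s_at (1.08) and Hmox1 (1.34) with benzyl alcohol against control arrays 2, 4 and 5. Of the other values of single probesets, 2321 stayed on their side of the threshold, 119 lost a call and 139 gained one. Among the 2321 were 66 that passed in neither setting and changed sign.

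Same-numbered arrays of different groups did not deviate together in most pairs, though so few arrays per group cannot show that the samples were unpaired. Over 18 pairs the correlation of their deviations was −0.56 to 0.44 and exceeded 0.1 in 3, so the numbers were not taken to pair the samples, and the block is an alternative only. With 3 arrays per treatment and controls this uneven, small changes are missed, and signals are relative to each array's normalization.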
